A study of Mus musculus with 9 samples.

Results

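The set examined here comprised 10 genes of blood vessel growth in mouse colon: the ligands Vegfa, Vegfc and Pgf, their receptors Kdr and Flt1, the angiopoietins Angpt1 and Angpt2 with their receptor Tek, and the endothelial secreted factors Esm1 and Apln. They were taken by name from a table of 21959 genes, and all 10 passed the low-count filter that left 14921 genes for testing. Poly-A RNA sequencing was available for 9 colon libraries of wild-type (WT) mice in 3 groups of 3. The group CDs received dextran sulfate sodium (DSS) together with lotus node charcoal carbon dots, nanometre-sized carbon particles. The group Model received DSS alone, a polymer that injures the colon lining and serves as a model of ulcerative colitis, and the group Blank received no treatment. The sources used here give neither the strain, sex and age of the mice nor the doses, the schedule and the time of collection.

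Vascular endothelial growth factors act on receptor tyrosine kinases of endothelial cells. Vegfa acts through Kdr, the main signalling receptor, and is also bound by Flt1, which holds it back as a decoy. Pgf binds Flt1 but not Kdr, and Vegfc acts mainly on lymphatic vessels. Angpt1 activates Tek and keeps vessels quiet and tight, and Angpt2, released by endothelial cells, can oppose it. Esm1 and Apln are secreted by the leading tip cells of growing sprouts. Inflamed intestine is known for widened, leaky and newly formed mucosal vessels.

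The sequence upstream of the transcription start is shown for 4 of the genes, because their transcripts took different courses in the data below: Vegfa did not pass the test in DSS-treated colon, Pgf had the largest fold change of the set, Flt1 stands for the endothelial receptors and Esm1 had the lowest fold change with carbon dots. Each run gives the 250 bases before the start, 5′ to 3′ on the gene's strand, from the RefSeq promoter table of GRCm38.p6, which held 8 of the 10 genes. For Vegfa and Pgf, which have 2 starts there, the upstream one is shown. The windows are chr17:46032378-46032627 on the minus strand for Vegfa, chr12:85177314-85177563 on the minus strand for Pgf, chr5:147726012-147726261 on the minus strand for Flt1 and chr13:113209409-113209658 on the plus strand for Esm1. Capitals mark, on either strand, the hypoxia response cores ACGTG and GCGTG and the ETS factor core GGAA.
Vegfa: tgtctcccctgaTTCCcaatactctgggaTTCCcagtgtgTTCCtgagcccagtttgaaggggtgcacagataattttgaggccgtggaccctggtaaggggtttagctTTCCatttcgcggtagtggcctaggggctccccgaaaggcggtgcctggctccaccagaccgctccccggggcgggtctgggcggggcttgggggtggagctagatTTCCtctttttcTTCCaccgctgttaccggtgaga
Pgf: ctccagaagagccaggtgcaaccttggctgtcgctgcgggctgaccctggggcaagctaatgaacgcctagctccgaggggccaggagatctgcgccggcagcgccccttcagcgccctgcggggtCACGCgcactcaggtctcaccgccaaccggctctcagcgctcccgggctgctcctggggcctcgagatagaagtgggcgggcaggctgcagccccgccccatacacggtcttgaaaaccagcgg
Flt1: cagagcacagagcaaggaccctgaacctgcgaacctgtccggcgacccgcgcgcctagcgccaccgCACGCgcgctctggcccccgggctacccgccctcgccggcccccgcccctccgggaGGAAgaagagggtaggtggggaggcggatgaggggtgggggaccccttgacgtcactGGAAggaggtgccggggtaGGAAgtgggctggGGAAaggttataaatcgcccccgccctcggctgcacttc
Esm1: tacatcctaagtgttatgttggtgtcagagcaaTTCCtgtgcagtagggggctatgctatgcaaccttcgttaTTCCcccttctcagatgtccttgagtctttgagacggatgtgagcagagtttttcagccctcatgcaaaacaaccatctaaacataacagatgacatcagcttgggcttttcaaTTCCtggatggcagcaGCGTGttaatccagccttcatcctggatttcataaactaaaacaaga
The Vegfa window shown held 6 GGAA cores and neither hypoxia core, but the window of its other start held 1 ACGTG, 1 GCGTG and 2 GGAA. The Pgf window held no GGAA and 1 GCGTG, the Flt1 window 4 GGAA and 1 GCGTG, and the Esm1 window 3 GGAA and 1 GCGTG. The window of the other Pgf start held none of these cores. These short motifs were common: of 32851 windows of the same length, 16.6% held ACGTG, 28.2% held GCGTG and 93.4% held GGAA, with a median of 3 GGAA cores. A match is a run of letters, not a known binding site.

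Libraries held 13868864 to 19940300 counted reads. Epithelial markers summed to 4759 to 10310 CPM (read counts scaled to library size) across the 9 libraries, and the kidney and liver transcripts Alb, Apoa2, Umod and Slc12a1 to at most 2.61 CPM. Some libraries stood apart. Pancreatic acinar transcripts took 0.833%, 0.00279% and 6.86% of reads in Model 1, 2 and 3, 0.0136% to 0.0364% in CDs and 0.0157% to 0.022% in Blank. Prostate list transcripts summed to 151 to 287 CPM in CDs, 162 to 249 CPM in Model, and 83.5, 1626 and 292 CPM in Blank 1, 2 and 3. Model 2 had the highest sums of neutrophil markers (2704 CPM, against 78.1 to 1323 CPM in the other 8 libraries) and of fibroblast markers (12660 CPM, against 2284 to 9658 CPM). Sums here and below are after TMM scaling, which aligns libraries on the bulk of their genes.

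Per length, Vegfa was the most abundant transcript of the set in every group. The FPKM values deposited by the authors, which divide the read count by gene length and depth, averaged 18.0 ± 0.157 in CDs, 21.5 ± 2.70 in Model and 21.4 ± 0.439 in Blank for Vegfa (SD, n = 3 each). The receptors Tek and Kdr came next in each group, and Flt1 overlapped Vegfc. Tek averaged 8.97 ± 0.977, 9.62 ± 1.14 and 3.53 ± 0.717 FPKM in CDs, Model and Blank, Kdr 7.51 ± 1.32, 8.21 ± 1.28 and 4.34 ± 0.460 FPKM, and Flt1 5.58 ± 1.25, 6.28 ± 1.02 and 2.80 ± 0.169 FPKM. Vegfc averaged 5.22 FPKM in CDs, 5.53 FPKM in Model and 3.43 FPKM in Blank. The other 5 genes averaged 1.33 to 2.01 FPKM in CDs, 2.40 to 5.34 FPKM in Model and 0.297 to 1.46 FPKM in Blank. In that order of levels, Vegfa was separated from the next gene in all 3 groups, but most other neighbours overlapped: 7 of 9 neighbouring pairs in CDs, 8 of 9 in Model and 6 of 9 in Blank. Pgf ranked last in Model and in Blank, and Esm1 last in CDs.

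**Figure D1:**
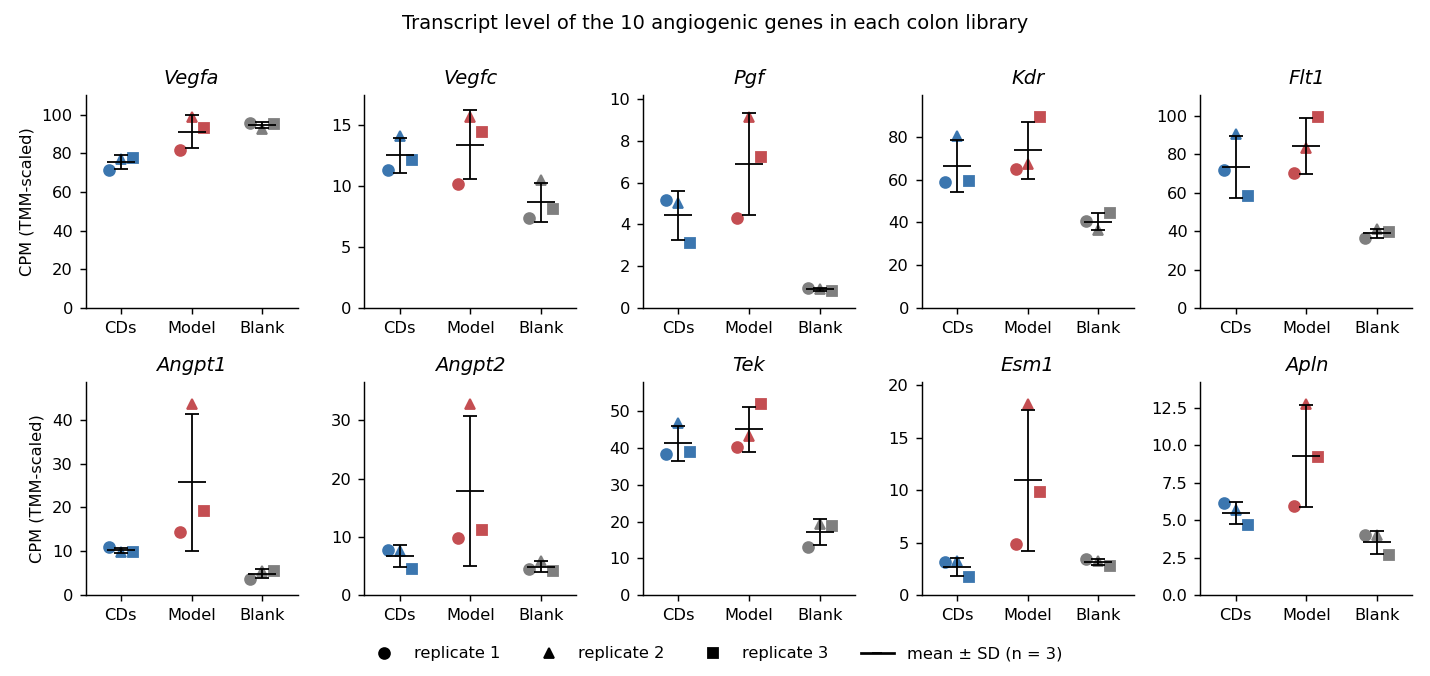
TMM-scaled CPM (y axis, from 0, with its own scale in each panel) of the 10 genes in the 9 libraries, with CDs, Model and Blank from left to right; symbols are replicates 1 to 3 and bars the mean ± SD (n = 3). Vegfa sits between 71.2 and 98.6 CPM throughout, the receptors Kdr, Flt1 and Tek are above Blank in all 6 DSS-treated libraries, and Model 2 is far above the other libraries for Angpt1, Angpt2 and Esm1.

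Most of the set was higher in DSS-treated colon, with the largest fold changes in Pgf and Angpt1, while Vegfa did not pass the test. Compared with Blank, 9 of the 10 genes were higher in Model and none was lower, by edgeR's quasi-likelihood test with Benjamini-Hochberg adjustment over all 14921 genes (adjusted p under 0.05, here referred to as called); scaled to endothelial reads instead, Vegfc, Kdr and Flt1 turned to the other direction, as described below. Among all tested genes, 24.5% were called higher and 19.6% lower. In 8 of the 10 genes, all Model libraries lay above all Blank libraries, which held for 30% of all tested genes. The median log2 fold change was 1.39 for the set and -0.03 for all tested genes. In whole tissue, a change in the number of cells of a type and a change in RNA per cell cannot be told apart. The series description calls the replicates biological, but whether each library is 1 mouse or a pool is not given.

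**Figure D2:**
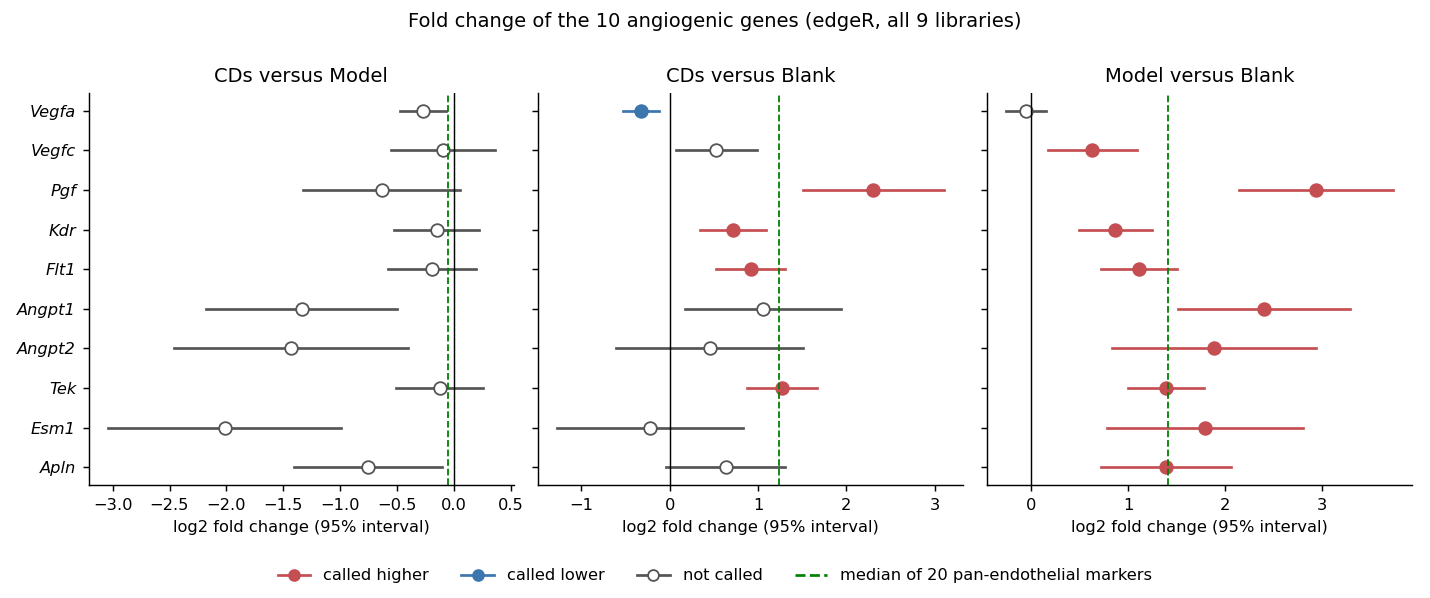
Log2 fold change (x axis) with its 95% interval for the 10 genes in CDs versus Model, CDs versus Blank and Model versus Blank, from 1 edgeR fit of all 9 libraries with TMM scaling; filled points passed an adjusted p of 0.05 and the dashed line is the median of 20 pan-endothelial markers. In Model versus Blank 9 genes lie right of 0 and are called (scaled to endothelial reads, Vegfc, Kdr and Flt1 lie left of 0); in CDs versus Model all 10 lie left of 0 and none is called (Vegfc at 0.02 when scaled to endothelial reads).

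Among the VEGF ligands, Vegfa (ENSMUSG00000023951; chromosome 17, 46327919 to 46343295 in the deposited table, whose genome build is not given) did not pass the test in Model. It had 81.8, 98.6 and 93.1 CPM in Model 1, 2 and 3, against 95.6, 92.8 and 95.04 CPM in Blank 1, 2 and 3. The groups overlapped, with 2 of the 3 Model libraries at or near the Blank level. Its log2 fold change was -0.05 ± 0.09 (SE; adjusted p = 0.667 by edgeR), with a 95% interval from 0.838-fold to 1.11-fold.

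Pgf, placental growth factor (ENSMUSG00000004791; chromosome 12, 85213409 to 85224564), changed most. It had 4.28, 9.12 and 7.24 CPM in the 3 Model libraries, against 0.965, 0.892 and 0.812 CPM in the 3 Blank libraries. Every Model library was above every Blank library, although Blank rested on only 11 to 15 reads per library. The log2 fold change was 2.94 ± 0.35 (SE; edgeR adjusted p = 0.000497), a 7.70-fold difference with a 95% interval from 4.44 to 13.3.

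Vegfc (ENSMUSG00000031520; chromosome 8, 54530641 to 54640131) was called higher by a small margin. It had 10.2, 15.6 and 14.4 CPM in Model, against 7.39, 10.5 and 8.12 CPM in Blank. Model 1 fell within the Blank range, so the groups overlapped. On the log2 scale the difference was 0.63 ± 0.20 (SE; edgeR adjusted p = 0.0335). The adjusted p was 0.117 without Model 2, 0.0977 without Model 3, 0.105 without Blank 1 and 0.0955 without Blank 3.

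Both VEGF receptors rose in Model. Kdr, VEGF receptor 2 (ENSMUSG00000062960; chromosome 5, 76093487 to 76139118), had 64.8, 67.6 and 89.1 CPM in Model, against 40.5, 36.4 and 44.4 CPM in Blank. Flt1, VEGF receptor 1 (ENSMUSG00000029648; chromosome 5, 147498414 to 147662821), had 70.4, 83.2 and 99.3 CPM in Model, against 36.5, 41.1 and 39.5 CPM in Blank. For both genes the lowest Model library was well above the highest Blank library, and Model 3 was the highest library of all 9. On the log2 scale the differences were 0.87 ± 0.17 for Kdr (SE; edgeR adjusted p = 0.00382) and 1.11 ± 0.18 for Flt1 (adjusted p = 0.00156).

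The angiopoietin receptor Tek (ENSMUSG00000006386; chromosome 4, 94627526 to 94763213) also rose, with 40.2, 43.3 and 51.9 CPM in Model, against 13.2, 19.5 and 18.8 CPM in Blank. Its Model libraries were close together and far from Blank. On the log2 scale the difference was 1.40 ± 0.17 (SE; edgeR adjusted p = 0.000593), a 2.63-fold difference with a 95% interval from 2.001 to 3.46.

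Both angiopoietins were called higher, with 1 library far above the others. Angpt1, the activating ligand (ENSMUSG00000022309; chromosome 15, 42288119 to 42540373), had 14.5, 43.5 and 19.2 CPM in Model, against 3.67, 5.56 and 5.46 CPM in Blank. Angpt2, the context-dependent antagonist (ENSMUSG00000031465; chromosome 8, 18740279 to 18791578), had 9.80, 32.7 and 11.2 CPM in Model, against 4.50, 5.90 and 4.21 CPM in Blank. Every Model library exceeded every Blank library in both genes, and Model 2 was 2.58 times the mean of Model 1 and 3 for Angpt1 and 3.12 times for Angpt2. The log2 fold change of Angpt1 was 2.40 ± 0.39 (SE; edgeR adjusted p = 0.00185), and 1.79 without Model 2 (adjusted p = 0.00131). That of Angpt2 was 1.89 ± 0.47 (SE; edgeR adjusted p = 0.0116), and 1.11 without Model 2 (adjusted p = 0.0193). Angpt2 overlaps Mcph1 in the deposited table and the protocol marks no strand, so its reads are uncertain. Mcph1, a chromosome condensation gene, had 9.14 to 13.04 CPM in CDs, 10.1 to 11.3 CPM in Model and 10.8 to 13.5 CPM in Blank.

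The tip cell factors were higher in Model by wide margins with wide spread. Esm1, endothelial cell-specific molecule 1 (ENSMUSG00000042379; chromosome 13, 113346193 to 113354632), had 4.87, 18.2 and 9.86 CPM in Model, against 3.41, 3.29 and 2.80 CPM in Blank. Apln, the ligand apelin (ENSMUSG00000037010; chromosome X, 47114023 to 47123730), had 5.95, 12.7 and 9.19 CPM in Model, against 3.99, 3.98 and 2.66 CPM in Blank. Neither gene's groups overlapped, and Model 2 was again the highest library. The log2 fold changes were 1.80 ± 0.45 for Esm1 (SE; edgeR adjusted p = 0.0122) and 1.39 ± 0.30 for Apln (adjusted p = 0.00592). Without Model 2 they were 1.22 (adjusted p = 0.0403) and 1.09 (adjusted p = 0.0207). Esm1 overlaps the T cell protease gene Gzmk in the deposited table, and Gzmk had at most 0.380 CPM in Model and 0.450 CPM in Blank.

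The call count in Model versus Blank fell without Blank 2 and Blank 3, which leaves a group of 1 library. They were left out for their prostate list sums (1626 and 292 CPM), although CDs 2, with 287 CPM, was kept. With 1 library left out at a time, 8 to 9 of the 10 genes were called. With Blank 1 alone as the untreated sample, 3 of the 10 genes were called, and the calls among all genes fell to 1536 of 15460 (1218 higher and 318 lower), against 6574 with all Blank libraries. The 3 were Pgf at 2.83 (edgeR adjusted p = 0.0395), Angpt1 at 2.82 (adjusted p = 0.0494) and Tek at 1.78 (adjusted p = 0.0276). The 6 genes that lost the call had log2 fold changes close to those with all libraries: Kdr 0.87 (adjusted p = 0.0852), Flt1 1.21 (0.0514), Vegfc 0.86 (0.109), Angpt2 2.001 (0.143), Esm1 1.70 (0.182) and Apln 1.23 (0.121). The lone Blank library is then assumed to vary like the other groups.

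Adding carbon dots to DSS gave no called difference from DSS alone. None of the 10 genes, and 0 of all 14921 tested genes (0%), passed an adjusted p of 0.05 by edgeR in CDs versus Model, with 788 tested genes (5.28%) and 5 of the 10 genes (Esm1, Angpt1, Angpt2, Vegfa and Apln) at an unadjusted p under 0.05. DESeq2 called 51 of 18385 genes, 5 higher and 46 lower, and 1 of the lower genes was in the set (Esm1). The log2 fold changes of all 10 genes were below 0, with a median of -0.46 beside 0.03 for all tested genes, of which 6689 were below 0; Vegfc was at 0.02 when scaled to endothelial reads. In 4 of the 10 genes (Vegfa, Angpt1, Angpt2 and Esm1) every CDs library lay below every Model library, which held for 4.77% of all tested genes. CDs versus Model and Model versus Blank share the Model libraries, so a high Model library pushes them in opposite directions.

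Esm1 had the lowest fold change, with 3.14, 3.29 and 1.69 CPM in CDs, against 4.87, 18.2 and 9.86 CPM in Model. The highest CDs library lay below the lowest Model library, and the CDs values overlapped the 2.80 to 3.41 CPM of Blank. Its log2 fold change was -2.02 ± 0.45 (SE; edgeR adjusted p = 0.891). DESeq2 gave -2.05 (adjusted p = 0.0119). Without Model 2 the edgeR value was -1.44 (adjusted p = 0.825). CDs rested on 23 to 55 reads of Esm1 per library, and Gzmk, which overlaps it, had 0.239 to 1.66 CPM in CDs.

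The angiopoietins had the next lowest fold changes. Angpt1 had 10.9, 9.87 and 9.78 CPM in CDs, against 14.5, 43.5 and 19.2 CPM in Model, and its CDs libraries were close together, below all Model libraries. Its log2 fold change was -1.34 ± 0.37 (SE; edgeR adjusted p = 0.891), and -0.73 without Model 2. Angpt2 had 7.81, 7.65 and 4.49 CPM in CDs, against 9.80, 32.7 and 11.2 CPM in Model. Its log2 fold change was -1.43 ± 0.45 (SE; edgeR adjusted p = 0.891), and -0.66 without Model 2. Adipocyte markers differed in the same direction, with none called. They summed to 87.4 to 174 CPM in CDs, 308, 212 and 266 CPM in Model 1, 2 and 3, and 41.6 to 81.2 CPM in Blank. In CDs versus Model 5 of 8 were lower without overlap, beside 4.77% of all tested genes. Among the Model libraries their sum was lowest in Model 2, where both angiopoietins were highest. Fibroblast markers summed to 6032, 12660 and 9658 CPM in Model 1, 2 and 3, and to 6572 to 7358 CPM in CDs. The part of either cell type in the result was not tested.

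Vegfa and Apln were closer between the groups. Vegfa had 71.2, 77.1 and 77.8 CPM in CDs, against 81.8, 98.6 and 93.1 CPM in Model, again without overlap. Its log2 fold change was -0.28 ± 0.09 (SE; edgeR adjusted p = 0.904), a 0.826-fold level with a 95% interval from 0.717 to 0.952. Apln had 6.14, 5.68 and 4.71 CPM in CDs, against 5.95, 12.7 and 9.19 CPM in Model, with CDs 1 inside the Model range. Its log2 fold change was -0.76 ± 0.29 (SE; edgeR adjusted p = 0.935), and -0.46 without Model 2.

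For the receptors and the remaining ligands the groups overlapped. Kdr had 59.1, 80.6 and 59.5 CPM in CDs, against 64.8 to 89.1 CPM in Model, and the 95% interval of its fold change ran from 0.694 to 1.17. Flt1 had 71.8, 90.4 and 58.5 CPM in CDs, against 70.4 to 99.3 CPM in Model, with an interval from 0.667 to 1.14. Tek had 38.3, 46.9 and 38.8 CPM in CDs, against 40.2 to 51.9 CPM in Model, with an interval from 0.703 to 1.20. A moderate decrease or a small increase of any of the 3 receptors lies within these intervals. Vegfc had 11.3, 14.1 and 12.1 CPM in CDs, against 10.2 to 15.6 CPM in Model, with an interval from 0.681 to 1.28. Pgf had 5.18, 5.02 and 3.09 CPM in CDs, against 4.28 to 9.12 CPM in Model, with an interval from 0.399 to 1.04.

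Leaving out Model 1, Model 3 and CDs 1 compares CDs 2 and CDs 3 with Model 2 alone, the library that is highest for these genes, so its calls describe that library rather than the group. The spread of the lone Model library is taken from the other groups there. edgeR called 4 of the 10 genes lower, beside 752 genes higher and 489 lower of 15411: Esm1 at -2.85, Angpt2 at -2.42, Angpt1 at -2.14 and Apln at -1.29. Model 2 was the highest of all 9 libraries for 7 of the 10 genes, and it was the highest for 17.9% of all tested genes.

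Compared with untreated colon, the receptors and Pgf were still called higher when carbon dots were given with DSS. In CDs versus Blank, edgeR called 5 of the 10 genes, 4 higher and 1 lower (background 21.8% higher and 13.8% lower of 14921 genes); scaled to endothelial reads, 6 genes turned from above to below 0, as given below. Pgf averaged 4.43 ± 1.17 CPM in CDs and 0.889 ± 0.0764 CPM in Blank (SD, n = 3 each), or 2.31 ± 0.35 on the log2 scale (SE; adjusted p = 0.00181 by edgeR). Tek averaged 41.3 ± 4.804 CPM in CDs and 17.2 ± 3.46 CPM in Blank, or 1.27 on the log2 scale (adjusted p = 0.00117). Flt1 averaged 73.6 ± 16.02 CPM in CDs and 39.0 ± 2.35 CPM in Blank, or 0.92 on the log2 scale (adjusted p = 0.00468), and Kdr 66.4 ± 12.3 CPM in CDs and 40.4 ± 3.997 CPM in Blank, or 0.72 on the log2 scale (adjusted p = 0.0111). In 7 of the 10 genes every CDs library was above every Blank library, as in 28.2% of all tested genes. These were the 3 receptors, Pgf, and Angpt1, Vegfc and Apln, which were not called.

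Vegfa was the gene called lower in CDs versus Blank. It averaged 75.4 ± 3.61 CPM in CDs and 94.5 ± 1.48 CPM in Blank (SD, n = 3 each), with all CDs libraries below all Blank libraries, as in 25.9% of all tested genes. The log2 fold change was -0.33 ± 0.09 (SE; edgeR adjusted p = 0.0225), with fold changes of -0.29 to -0.34 and an adjusted p of 0.0508 to 0.0703 when CDs 1, CDs 2, Blank 1, Blank 2 or Blank 3 was left out. limma on log2 FPKM gave -0.25 (adjusted p = 0.0984), also not called. Epithelial markers summed to 5235 to 8958 CPM in CDs, 4759 to 8035 CPM in Model and 8920 to 10310 CPM in Blank. In CDs versus Blank 2 of 10 were called lower, beside 13.8% of all tested genes. The part of the epithelial markers in the result was not tested.

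The 5 genes not called in CDs versus Blank were Angpt1 at 1.06 ± 0.39 (log2 fold change ± SE; edgeR adjusted p = 0.0614), Vegfc at 0.53 ± 0.20, Apln at 0.64 ± 0.30, Angpt2 at 0.45 ± 0.47 and Esm1 at -0.22 ± 0.46. For Angpt2 and Esm1 the groups overlapped, and the 95% interval of the Esm1 fold change ran from 0.414 to 1.78. Angpt1 was called in a fit without the Model libraries (1.07, adjusted p = 0.0087) and without Model 2 (1.06, adjusted p = 0.00612). Without Model 1, Model 3 and CDs 1, edgeR also called Vegfc (0.60, adjusted p = 0.0422) and Angpt1 (1.01, adjusted p = 0.0067). With Blank 1 as the untreated sample, Tek was the 1 gene of the set called, at 1.65 (adjusted p = 0.0371), among 465 of 15460 genes. The others lost the call at Pgf 2.20 (adjusted p = 0.083), Flt1 1.01 (0.0947), Kdr 0.71 (0.156) and Vegfa -0.34 (0.201).

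The general markers of endothelial cells rose in the same comparisons as the receptors. Of 20 pan-endothelial markers outside the set (such as Pecam1, Cdh5 and Erg), 18 were called higher in Model versus Blank. In CDs versus Blank 17 were called higher. Of all tested genes, 24.5% and 21.8% were called higher in these comparisons. The median log2 fold changes of the markers were 1.41 and 1.24. None of the markers was called in CDs versus Model (median -0.05). Their summed level was 581 to 762 CPM in CDs, 552 to 801 CPM in Model and 284 to 302 CPM in Blank. Tek (1.40), Apln (1.39), Flt1 (1.11), Kdr (0.87), Vegfc (0.63) and Vegfa (-0.05) lay at or below the marker median in Model versus Blank. Pgf (2.94), Angpt1 (2.40), Angpt2 (1.89) and Esm1 (1.80) lay above it. Without Model 2, Pgf was at 2.68, Angpt1 at 1.79, Angpt2 at 1.11 and Esm1 at 1.22. The marker median of 1.41 includes Model 2, and a median without it was not computed. Whether a gene follows the endothelial share of the tissue was described by its reads per 1000 pan-endothelial reads.

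**Figure D3:**
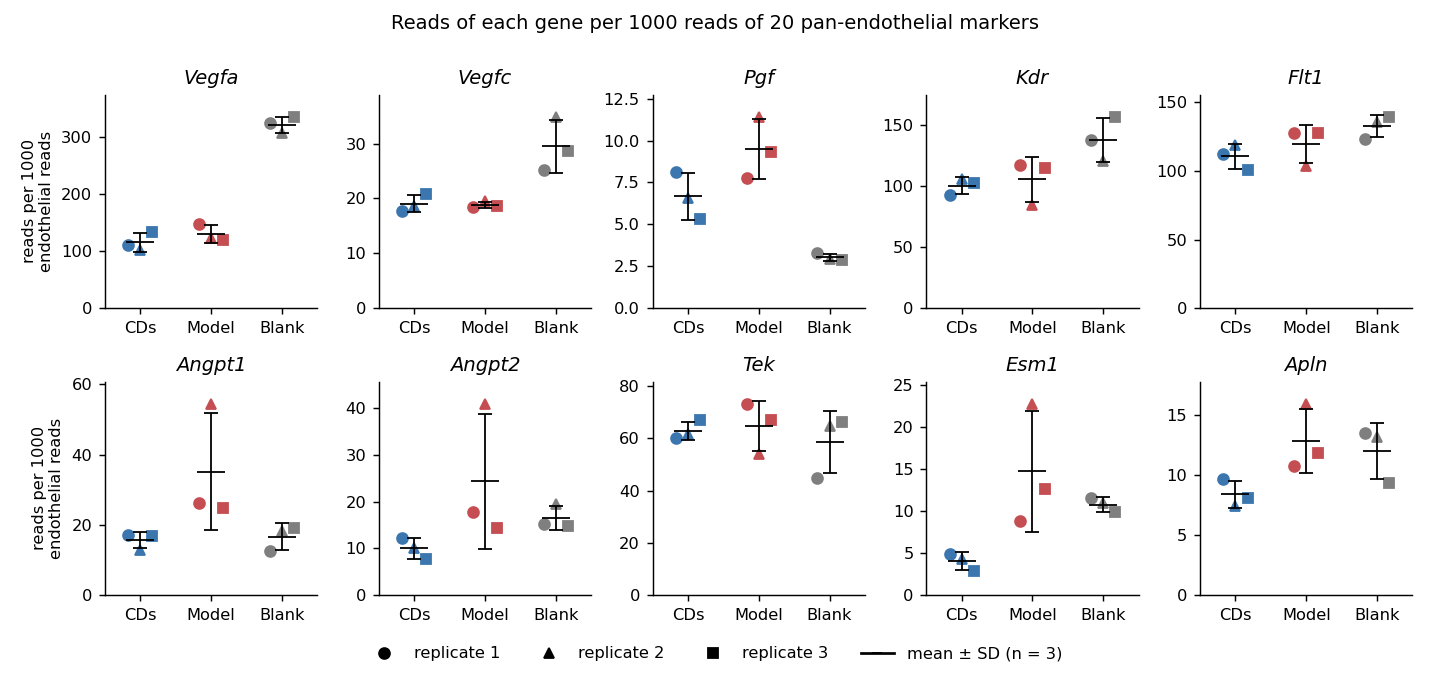
Reads of each of the 10 genes per 1000 reads of 20 pan-endothelial markers (y axis, from 0, with its own scale in each panel) in the 9 libraries, with CDs, Model and Blank from left to right; symbols are replicates 1 to 3 and bars the mean ± SD (n = 3). Vegfa is at 101 to 148 in the DSS-treated libraries, against 307 to 335 in Blank, while its CPM overlapped between Model and Blank. On this scale 10989 of 14921 genes were called lower in Model versus Blank. Tek stays between 44.7 and 72.9 in every library, and Pgf stays above Blank in all 6 DSS-treated libraries.

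On that scale Tek had 62.8 ± 3.53 reads per 1000 endothelial reads in CDs, 64.6 ± 9.65 in Model and 58.5 ± 12.0 in Blank (SD, n = 3 each), and Flt1 had 111 ± 9.17 in CDs, 120 ± 13.7 in Model and 133 ± 8.16 in Blank. Kdr had 100.3 ± 6.82 in CDs, 106 ± 18.4 in Model and 138 ± 18.0 in Blank, and every CDs and Model library was below every Blank library. Vegfa had 116 ± 16.7 in CDs, 130 ± 15.6 in Model and 322 ± 13.92 in Blank. Pgf had 6.68 ± 1.41 in CDs, 9.49 ± 1.81 in Model and 3.03 ± 0.216 in Blank. Esm1 had 4.92, 4.32 and 2.91 in CDs, 8.82, 22.7 and 12.7 in Model and 11.6, 10.9 and 9.88 in Blank. Every CDs library was thus below both other groups for Esm1 on this scale. Most genes fell against Blank on it: 10989 of 14921 were called lower in Model versus Blank and 10759 in CDs versus Blank. The share of all genes without overlap on this scale was not counted. Under TMM scaling Kdr was higher in CDs and Model than in Blank. Esm1 in CDs (1.69 to 3.29 CPM) then overlapped Blank (2.80 to 3.41 CPM).

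In the edgeR fit scaled to endothelial reads, the median log2 fold change of all tested genes moved to -1.26 in Model versus Blank and -1.15 in CDs versus Blank, and to 0.11 in CDs versus Model. That scale moves the whole table: of 14921 genes, 803 rose and 10989 fell in Model versus Blank, and 686 rose and 10759 fell in CDs versus Blank. In Model versus Blank 4 of the 10 genes were called: Pgf (1.65, adjusted p = 0.000414) and Angpt1 (1.08, adjusted p = 0.00809) higher, and Vegfa (-1.31, adjusted p = 0.000157) and Vegfc (-0.65, adjusted p = 0.0126) lower. Kdr (-0.39), Flt1 (-0.15), Tek (0.14), Apln (0.10), Angpt2 (0.56) and Esm1 (0.46) were not called. In CDs versus Blank Pgf (1.14) was called higher, and Vegfa (-1.48), Esm1 (-1.40), Vegfc (-0.63) and Kdr (-0.46) lower. Relative to the shift of all genes, the Model versus Blank fold changes ran from -0.04 (Vegfa) to 2.91 (Pgf). Taking off that shift largely undoes the change of scale, so their closeness to the TMM values is not a separate result. No gene was called in CDs versus Model on this scale either.

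Ratios between paired ligands or receptors within a library were compared as log2 ratios of FPKM + 0.1, where the added 0.1 shrinks ratios of low genes. With 3 against 3 libraries the two-sided exact permutation test cannot go below p = 0.1, so none can pass a threshold of 0.05. Pgf over Vegfa was -3.17 ± 0.40 in Model and -5.76 ± 0.10 in Blank (SD, n = 3 each), a difference of 2.59 (exact permutation p = 0.1) with all Model libraries higher. That difference was 2.90 with 0.01 added and 1.36 with 1 added. Vegfc over Vegfa was -1.96 ± 0.19 in Model and -2.62 ± 0.28 in Blank, also without overlap (exact permutation p = 0.1). Angpt2 over Angpt1 was -0.08 ± 0.18 in Model and 0.45 ± 0.31 in Blank, with all Model libraries lower (exact permutation p = 0.1). Flt1 over Kdr was -0.38 ± 0.09 in Model and -0.61 ± 0.19 in Blank, with overlap (exact permutation p = 0.3). Between CDs and Model the 4 differences ran from -0.31 (Pgf over Vegfa) to 0.19 (Vegfc over Vegfa), all with overlap and exact permutation p of 0.2 to 0.9.

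Other genes of the same pathways were mostly called higher in Model under TMM scaling. Of 49 tested genes in 4 lists, 35 were called higher and 1 lower (Ephb4, an ephrin receptor, at -0.76) in Model versus Blank. The background there, over all 14921 genes, was 24.5% higher and 19.6% lower. For CDs versus Blank the counts were 30 higher and 1 lower, beside a background of 21.8% and 13.8%. None of the 49 was called in CDs versus Model, where 10 had an unadjusted p under 0.05, beside a background of 5.28%. Scaled to endothelial reads, 13 of the 49 were called higher and 15 lower in Model versus Blank, beside 803 higher and 10989 lower of all 14921 genes. On that scale 7 were called higher and 17 lower in CDs versus Blank, beside 686 higher and 10759 lower of all genes. With Blank 1 as the untreated sample, 20 were called in Model versus Blank and 4 in CDs versus Blank, and without Model 1, Model 3 and CDs 1, 2 were called higher and 13 lower in CDs versus Model. The directions below are under TMM scaling. The background percentages above apply to the counts of each list and marker group below. The median log2 fold changes over the 4 lists together were 1.34 in Model versus Blank and -0.27 in CDs versus Model.

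Among the other VEGF family genes, 4 of 5 were called higher in Model. The lymphatic receptor Flt4 averaged 47.1 ± 9.10 CPM in Model and 12.3 ± 2.60 CPM in Blank (SD, n = 3 each), or 1.94 on the log2 scale (edgeR adjusted p = 0.000329). The co-receptor Nrp1 changed by 1.38 and Vegfd, a ligand of Flt4, by 2.15. Vegfb, at -0.04, was not called. In CDs versus Model the smallest p-values were those of Vegfd (8.61 ± 2.27 CPM in CDs and 15.6 ± 3.40 CPM in Model; -0.86, edgeR adjusted p = 0.904) and Flt4 (32.7 ± 3.50 CPM in CDs and 47.1 ± 9.10 CPM in Model; -0.53, adjusted p = 0.927), both without overlap. All 7 lymphatic endothelial markers were called higher in Model versus Blank, with a median of 1.78, and 4 of 7 had an unadjusted p under 0.05 in CDs versus Model, with a median of -0.57.

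Among the other angiopoietin and apelin genes, 4 of 5 were called higher in Model: Ptprb, a phosphatase that acts on Tek (1.16), Tie1, the partner receptor of Tek (1.47), the apelin receptor Aplnr (0.96) and Angpt4 (1.36). In CDs versus Model, Tie1 averaged 35.1 ± 8.93 CPM in CDs and 40.7 ± 5.99 CPM in Model, and Aplnr 12.0 ± 3.66 CPM in CDs and 9.83 ± 2.73 CPM in Model, both with overlap.

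Of 16 Notch and tip cell genes, 11 were called higher and none lower in Model versus Blank. The smallest p-values were those of Fscn1, an actin-bundling protein (2.43, edgeR adjusted p = 0.000467), Nid2, a basement membrane protein (2.096, adjusted p = 0.000937), and Cxcr4, a chemokine receptor (2.39, adjusted p = 0.00167). Cxcr4 and Plaur (2.53) are also transcribed by leukocytes, whose markers moved in the same comparison: 10 of 10 neutrophil markers were called higher, summing to 441 to 2704 CPM in Model and 78.1 to 95.4 CPM in Blank. Their part in the result was not tested. Dll4, the Notch ligand of tip cells, was not called (0.13), and neither were Notch1, Heyl, Hey2 and Unc5b. In CDs versus Model, Dll4 averaged 10.5 ± 1.70 CPM in CDs and 13.5 ± 0.658 CPM in Model, without overlap (log2 fold change -0.37, edgeR adjusted p = 0.936), and the endothelial receptor Notch4 16.6 ± 3.73 CPM in CDs and 21.3 ± 1.72 CPM in Model.

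Of 23 other growth factors, guidance cues and receptors, 16 were called higher and 1 lower in Model versus Blank. Hgf, the hepatocyte growth factor made by stromal cells, averaged 177 ± 75.0 CPM in Model and 13.1 ± 2.62 CPM in Blank (SD, n = 3 each; log2 fold change 3.76, edgeR adjusted p = 0.000304). Robo1, a Slit receptor, changed by 1.47 and Calcrl, the adrenomedullin receptor, by 1.57. In CDs versus Model, Fgf7, a fibroblast growth factor that acts on epithelium, averaged 43.4 ± 9.81 CPM in CDs and 106 ± 65.3 CPM in Model, with overlap (-1.30, edgeR adjusted p = 0.891), and Robo1 35.4 ± 2.63 CPM in CDs and 45.6 ± 4.73 CPM in Model. Fibroblast markers, of which 10 of 10 were called higher in Model versus Blank, summed to 6572 to 7358 CPM in CDs, 6032 to 12660 CPM in Model and 2284 to 2685 CPM in Blank. Pericyte markers were called higher in 7 of 9, summing to 966 to 1554 CPM in Model and 387 to 532 CPM in Blank. The part of either cell type in these results was not tested.

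**Figure D4:**
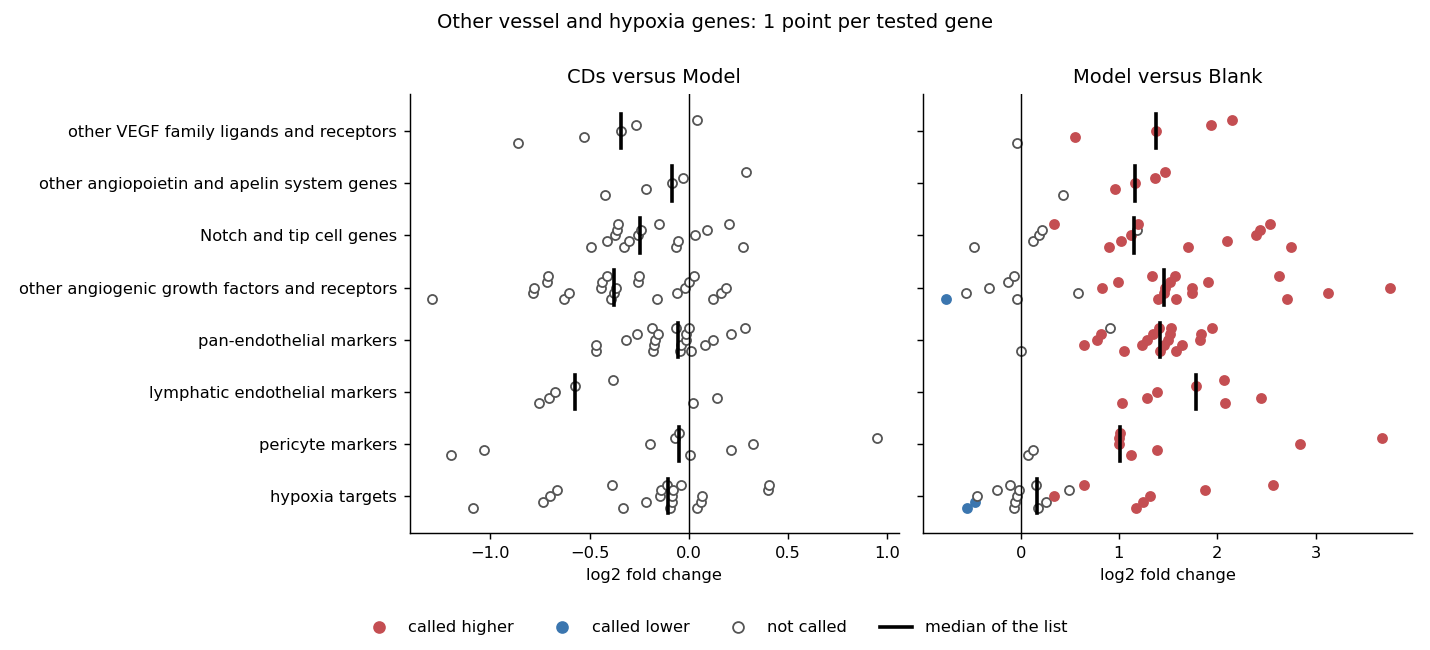
Log2 fold change (x axis, TMM scaling) of the tested genes of 8 lists in CDs versus Model and Model versus Blank, 1 point per gene; filled points passed an adjusted p of 0.05 and black bars are list medians. In Model versus Blank under this scaling (13 pathway genes higher and 15 lower when scaled to endothelial reads) the 4 pathway lists and the endothelial lists have medians of 1.15 to 1.78 and the hypoxia targets 0.17, and in CDs versus Model no gene is called.

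Genes that cells switch on when oxygen is low, which include Vegfa by textbook knowledge, did not move as a block. Of 20 tested hypoxia targets other than Vegfa, 7 were called higher and 2 lower in Model versus Blank. Of all tested genes, 24.5% were called higher and 19.6% lower. The median log2 fold change of the targets was 0.17. The called genes were Pfkfb3 (2.56), Bnip3 (1.88), Ddit4 (1.32), P4ha2 (1.25), P4ha1 (1.17), Ero1a (0.65) and Slc2a1 (0.34) higher, and Pdk1 (-0.54) and Kdm3a (-0.47) lower. Of the factors that switch them on, Hif1a (0.90) and Epas1 (0.68) were called higher, and Hif1an, an inhibitor of Hif1a, lower (-0.46). These genes were listed by their calls, after their values were seen.

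The set split into patterns when genes were compared by their level over the 9 libraries, each centred on its own mean. The measure of likeness was the mean absolute difference of log2 CPM, and it is a description over libraries that share their groups. Within the set, Kdr and Flt1 (0.14) and Flt1 and Tek (0.15) were most alike. Among all tested genes, Flt1 was nearest to Arhgef15 (0.07) and Col16a1 (0.09), Tek to Fgd5 (0.08) and Plcl1 (0.09), and Kdr to Ptpn14 (0.09) and Ncam1 (0.09). Angpt1 was nearest to Fgf7 (0.19) and Snai2 (0.19), Angpt2 to Ddit4 (0.24) and Tmem119 (0.26), and Esm1 to Angpt2 (0.32) and Ddit4 (0.32). Pgf was close to Itm2a (0.13), Apln was nearest to Loxl4 (0.08) and Zc3h12c (0.14), Vegfc to Evc and Rusc2 (both 0.08) and Vegfa to Zfp260 (0.05) and Arfip1 (0.05). The differences for Angpt2 and Esm1 are the widest, but the measure is not scaled to how much a gene varied. Over the 9 libraries the log2 range was 2.92 for Angpt2, 3.33 for Esm1 and 3.52 for Angpt1, against 0.47 for Vegfa. Both Angpt2 and Esm1 have Model 2 as their highest library.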

How the data were processed

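Colon RNA of 9 mouse libraries was sequenced after poly-A capture, per the labels' protocols, which name no step that marks the strand. The authors deposited read counts and FPKM values per gene. The tools named in the submitters' processing notes are HTSeq 0.9.1, HISAT2 2.1.0 and fastp 0.22.0. Genome build and strand setting: not given in the sources used here. FPKM equals count over gene length and total reads, so it served for levels between genes and for ratios.

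Deposited counts went into edgeR 4.0.16 in R 4.3.3 (filterByExpr, TMM scaling, quasi-likelihood F test) in 1 fit of 9 libraries, two-sided, with Benjamini-Hochberg adjustment over 14921 genes. CPM values are TMM-scaled. DESeq2 1.42.0 and limma 3.58.1 served as alternatives. The text names all members, per pathway list those of smallest p (3 for Model against Blank, 2 for CDs against Model), and per member the 2 genes of most similar pattern (1 of them is not reported here); other genes named were chosen after their values were seen. Members and lists were chosen with earlier results of these data known.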

Additional observations from a re-analysis of the deposited data

How the results depend on the processing

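Over 9 fits that each leave out 1 library, the members called ranged from 8 to 9 in Model versus Blank, 0 to 0 in CDs versus Model and 4 to 7 in CDs versus Blank, and the pathway genes called from 31 to 41, 0 to 0 and 27 to 31. Scaled to endothelial reads, 4 members were called in Model versus Blank (11792 genes in all, 11445 in CDs versus Blank). With Blank 1 as the 1 untreated library, 3 members and 20 pathway genes were called in Model versus Blank (1536 genes in all), and 1 member and 4 pathway genes in CDs versus Blank (465 in all). DESeq2 called 1 member and 51 of 18385 genes in CDs versus Model. Without Model 1, Model 3 and CDs 1, that comparison had 4 members, 15 pathway genes and 1241 genes called.

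Scaled to endothelial reads, the log2 fold change turned to -0.646 for Vegfc, -0.388 for Kdr and -0.151 for Flt1 in Model versus Blank, to 0.016 for Vegfc in CDs versus Model, and in CDs versus Blank to -0.63 for Vegfc, -0.461 for Kdr, -0.264 for Flt1, -0.093 for Angpt1, -0.722 for Angpt2 and -0.521 for Apln. Other reversals were of values near 0. With 1 library left out, the range was -0.111 to 0.019 for Vegfa in Model versus Blank (above 0 without Model 1), -0.262 to 0.026 for Vegfc (without Model 2) and -0.317 to 0.002 for Kdr (without Model 3) in CDs versus Model, and -0.386 to 0.029 for Esm1 in CDs versus Blank (without CDs 3). Log2 ratios in CDs versus Model ranged from -0.205 to 0.151 for Angpt2 over Angpt1 and from -0.118 to 0.031 for Flt1 over Kdr (above 0 without CDs 3, and at 0.017 and 0.004 without Model 2). Without Model 1, Model 3 and CDs 1, Vegfa in Model versus Blank was 0.058 and Kdr in CDs versus Model 0.055. The cause was not tested.

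With the replicate number as a block, 9 members were called in Model versus Blank, 0 in CDs versus Model and 7 in CDs versus Blank, where Vegfc (0.539) and Angpt1 (1.108) were added. The labels do not say what the numbers stand for. Deviations of same-numbered libraries correlated at -0.368 to 0.206, which does not settle whether they are paired. Pgf in Blank rested on 11 to 15 reads, which limits the precision of its fold change.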
